A study of Mus musculus with 6 samples.

Results

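The antibody constant region genes *Ighm*, *Ighd*, *Igha*, *Ighg1*, *Ighg2b*, *Ighg2c*, *Ighg3*, *Igkc* and *Iglc1*, together with the joining chain gene *Jchain*, were followed in retinal cells sorted to enrich retinal ganglion cells (RGCs). These are 10 of the 55573 genes in the count table. They were chosen by name, as genes of the constant parts of antibodies and of their joining chain, and all 10 had counts in the table and entered the tests. *Ighe*, the IgE constant gene, is not among them, and it had 0 to 13 counts in a library. Adult C57BL/6J mice of both sexes received an intravitreal injection of an adeno-associated virus, AAV2-*GFP* in the control group or AAV2-*Ezh2* in the *Ezh2* overexpression group. The optic nerve was crushed 2 weeks later, and the cells were sorted 3 days after the crush. There were 3 libraries per group, and both groups had therefore been injected and injured. The sort gated on CD90.2, the product of *Thy1*, which T cells carry as well as RGCs, and the labels do not say whether the libraries came from separate animals. P-values measure the spread between these libraries, which may be technical.

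An antibody consists of heavy chains and light chains. The heavy chain constant gene sets the class: *Ighm* gives IgM, *Ighd* gives IgD, *Igha* gives IgA and the *Ighg* genes give the IgG subclasses. A naive B cell makes IgM and IgD from one transcript by splicing. After activation, class switching joins the same variable region to a constant gene farther along the locus. Light chains are made from the kappa constant gene *Igkc* or from a lambda constant gene such as *Iglc1*. *Jchain* encodes the small protein that links IgM pentamers and IgA dimers, and plasma cells are the B lineage cells that secrete antibody in bulk. C57BL/6 mice carry IgG2c in place of IgG2a, and no *Ighg2a* row was found in the table.

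The heavy chain genes lie on the minus strand of chromosome 12 in mouse build GRCm38. Transcription meets *Ighm* (113418558 to 113422730) first, followed by *Ighd* (113406604 to 113416324), *Ighg3* (113356224 to 113361232) and *Ighg1* (113325240 to 113330523). *Ighg2b* (113302965 to 113307933), *Ighg2c* (113285325 to 113288932) and *Igha* (113254830 to 113260236) follow. *Igkc* lies on chromosome 6 (70726435 to 70726966, plus strand), *Iglc1* on chromosome 16 (19061618 to 19062071, minus strand) and *Jchain* on chromosome 5 (88519809 to 88527891, minus strand). No exon of these genes overlapped an exon of another gene in the GENCODE M21 annotation.

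The first 90 bases of the first constant exon, which encodes part of the CH1 domain, are shown for the 4 IgG genes because their likeness limits how reads can be assigned among them. Capitals mark bases that differ from *Ighg2c* or, in the *Ighg2c* line itself, from *Ighg2b*.
Ighg2c, chr12:113288843-113288932, minus strand: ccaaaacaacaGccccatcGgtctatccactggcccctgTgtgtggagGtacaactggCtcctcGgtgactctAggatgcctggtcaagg
Ighg2b, chr12:113307844-113307933, minus strand: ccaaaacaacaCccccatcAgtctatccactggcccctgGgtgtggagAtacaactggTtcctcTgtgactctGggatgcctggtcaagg
Ighg1, chr12:113330434-113330523, minus strand: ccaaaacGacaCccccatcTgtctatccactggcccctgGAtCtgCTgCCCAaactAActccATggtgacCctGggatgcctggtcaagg
Ighg3, chr12:113361143-113361232, minus strand: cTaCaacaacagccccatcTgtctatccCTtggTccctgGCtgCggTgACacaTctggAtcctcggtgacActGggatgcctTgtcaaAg
*Ighg2b* and *Ighg2c* differed at 7 of these 90 bases, and *Ighg1* and *Ighg3* each differed from *Ighg2c* at 18. Over the whole first exon, *Ighg2b* and *Ighg2c* were 87.6% identical. *Ighm* and *Igha*, the other heavy chain genes that the shares below turn on, are shown without capitals since they align poorly with the IgG genes and with each other.
Ighm, chr12:113422641-113422730, minus strand: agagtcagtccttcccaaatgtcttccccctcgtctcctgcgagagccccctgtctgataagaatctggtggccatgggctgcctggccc
Igha, chr12:113260147-113260236, minus strand: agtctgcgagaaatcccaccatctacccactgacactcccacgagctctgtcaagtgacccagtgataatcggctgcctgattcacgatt
The first exons of *Ighm* and *Igha* were 50.6% identical. Of all 50-base windows in a gene's transcripts, 5.49% in *Ighg2c* and 4.15% in *Ighg2b* also occurred in a transcript of another gene, against 1.58% in *Ighg3* and 0.393% in *Ighg1*. None of the windows of *Ighm*, *Ighd*, *Igha*, *Igkc*, *Iglc1* or *Jchain* did.

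Libraries held 30569933 to 35971192 counts, and a count of 0 allows up to 3 counts, or 0.0834 to 0.0981 CPM, counts scaled to the library total. These limits cover counting error only. *Ezh2*, the overexpressed gene, ranged over 28.8, 34.6 and 33.0 CPM with AAV2-*GFP* and over 78.0, 65.3 and 104.8 CPM with AAV2-*Ezh2* (replicates 1 to 3). Ezh2 replicate 3 stood apart from the other libraries. Summed T cell markers reached 1032 CPM there and 471 to 627 CPM elsewhere. In addition, 8 of the 10 antibody genes had their lowest CPM in this library. The study excluded 1 *Ezh2* library without naming it in the labels. It was inferred to be this one from the heatmap columns of the study, which hold Ezh2 replicates 1 and 2 only. Results are therefore given for 5 libraries (GFP replicates 1 to 3 and Ezh2 replicates 1 and 2) and for all 6. Calls required more than a 1.5-fold difference and an edgeR adjusted p below 0.05. Fold changes are given as log2FC, the log2 fold change of Ezh2 over GFP.

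Antibody transcripts were abundant in every library. All 432 antibody genes together, variable and joining segments included, took 0.608% to 1.09% of a library's counts. Per kb of exon, *Igkc* was the highest of the 10 genes in every library, at 2204 to 3895 RPKM (counts per kb of exon, scaled to the library total as in CPM). *Ighg2c* came next at 851 to 1550 RPKM, then *Igha* at 359 to 658 RPKM. *Ighm* (234 to 349 RPKM), *Ighg2b* (185 to 489 RPKM) and *Jchain* (107 to 195 RPKM) followed. *Ighm* and *Ighg2b* changed order between libraries, and *Jchain* lay below both in each. *Iglc1* had 45.4 to 122 RPKM. *Ighg3* lay at 4.11 to 20.6 RPKM, *Ighd* at 0.0732 to 4.72 RPKM and *Ighg1* at 0 to 1.49 RPKM, and the last 2 also overlapped. The plot of RPKM by library shows these levels.

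**Figure D1:**
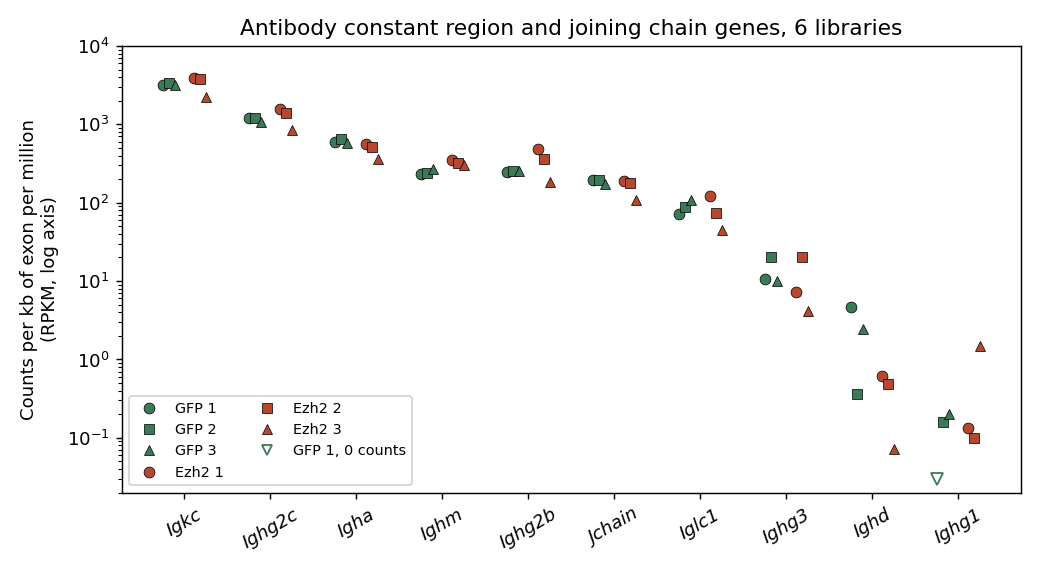
Level of each antibody constant region gene and of Jchain in each library, in RPKM on a log axis, with green points for GFP and red points for Ezh2 libraries and 1 marker shape per replicate number. The open triangle marks 0 counts of Ighg1 in GFP replicate 1. Igkc is highest in all 6 libraries, and Ezh2 replicate 3 (red triangle) is lowest for 8 of the 10 genes.

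Compared to the control group, 1 of the 10 genes, *Ighg2b*, was called higher and 0 were called lower in the 5 libraries. Among all genes tested, 3.8% were called, 2.52% higher and 1.28% lower. At an unadjusted edgeR p under 0.05, 4 of the 10 were higher and 1 was lower, beside 15.5% and 13.8% of all genes tested (29.3% in all). DESeq2 and limma-voom each called 1 higher and 0 lower. With all 6 libraries edgeR called 0 of the 10, where 2.52% of all genes tested were called, 1.62% higher and 0.902% lower. At an unadjusted p under 0.05 that fit had 1 gene higher and 0 lower, beside 13.0% and 11.5% of all genes tested (24.5% in all), and DESeq2 on the 6 libraries also called 0. The median log2FC of the 10 genes was 0.095 in the 5 libraries and -0.044 in all 6, beside -0.0078 and 0.0083 over all genes tested. By adjusted p alone, 4 of the 10 genes (*Ighm*, *Ighg2b*, *Ighg2c* and *Igkc*) were higher in the 5 libraries, against 10.1% of all genes tested higher and 7.68% lower (17.8% in all). In bulk samples, more antibody-making cells and more antibody RNA per cell cannot be told apart.

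IgM is the first antibody class a B cell makes. *Ighm* had 441, 446 and 501 CPM across GFP replicates 1 to 3. The Ezh2 libraries had 659, 610 and 565 CPM. All 3 Ezh2 libraries lay above all 3 GFP libraries, an arrangement found in this direction for 14.9% of all genes tested and in either direction for 34.2%. *Ighm* rose by 0.47 ± 0.05 (SE) on the log2 scale in the 5 libraries at an adjusted p of 2.79e-07 by edgeR, a change smaller than the fold threshold. With all 6 libraries the log2FC was 0.44 ± 0.07 (SE) at an adjusted p of 0.0122 by edgeR. It was the 1 antibody gene among the 10 that kept an adjusted p under 0.05 with Ezh2 replicate 3 included. Without GFP replicate 1 or 2 in the 6-library fit, the edgeR adjusted p was 0.104 or 0.0904, with log2FC values of 0.41 in both cases.

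*Ighd*, the IgD gene that naive B cells express beside *Ighm*, was scarce and uneven. GFP replicates 1 to 3 had 274, 22 and 141 counts, and Ezh2 replicates 1 to 3 had 38, 32 and 5 counts. GFP replicate 2 lay below Ezh2 replicates 1 and 2, so the groups overlapped. The log2FC was -2.17 ± 1.31 (SE) in the 5 libraries at an adjusted p of 0.406 by edgeR, and -2.65 ± 1.10 (SE) in all 6 at an adjusted p of 0.223 by edgeR. Dropping GFP replicate 2 from the 5 libraries made *Ighd* a gene called lower, at a log2FC of -2.68 and an edgeR adjusted p of 7.1e-07. Per kb, *Ighd* was at most 0.205% of the heavy chain constants in any library.

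Among the IgG genes, *Ighg2b* differed most between the groups in the 5 libraries. It had 663, 670 and 679 CPM in GFP replicates 1 to 3, a narrow range. Ezh2 replicates 1 and 2 had 1309 and 981 CPM, while Ezh2 replicate 3 had 495 CPM and lay below every GFP library. *Ighg2b* averaged 671 ± 8.47 CPM (SD, n = 3) in the GFP group and 1145 ± 232 CPM (SD, n = 2) in Ezh2 replicates 1 and 2, and rose with a log2FC of 0.78 ± 0.12 (SE) at an adjusted p of 0.00966 by edgeR. With Ezh2 replicate 3 included the log2FC was 0.50 ± 0.34 (SE) at an adjusted p of 0.418 by edgeR, and the call was lost. Leaving Ezh2 replicate 1 out of those 6 took the log2FC to 0.19. Within the 5 libraries it was also lost without GFP replicate 3 (log2FC 0.79, edgeR adjusted p of 0.0836) and without Ezh2 replicate 1 (0.57, under the fold change threshold).

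*Ighg2c*, the most abundant heavy chain gene per kb, had 1616, 1604 and 1435 CPM across GFP replicates 1 to 3. Ezh2 replicates 1 to 3 had 2055, 1852 and 1129 CPM. Ezh2 replicates 1 and 2 lay above the GFP libraries and Ezh2 replicate 3 below them. The log2FC was 0.34 ± 0.06 (SE) in the 5 libraries at an adjusted p of 3.9e-05 by edgeR and a fold below the threshold. In all 6 libraries it was 0.14 ± 0.20 (SE) at an adjusted p of 0.683 by edgeR.

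The remaining IgG genes were low. *Ighg3* had 26.8, 50.3 and 25.1 CPM in the 3 GFP libraries in order, and 18.3, 51.7 and 10.3 CPM in Ezh2 replicates 1 to 3. In each group the library numbered 2 was the highest. The log2FC of *Ighg3* was 0.06 ± 0.67 (SE) at an adjusted p of 0.972 by edgeR, and it turned to -0.32 with all 6 libraries. *Ighg1* had 0, 13 and 16 counts in the GFP libraries and 11 and 9 counts in Ezh2 replicates 1 and 2. Ezh2 replicate 3 had 139 counts of it, the highest of all libraries. The log2FC of *Ighg1* was -0.05 ± 0.84 (SE) without that library and 2.33 ± 1.46 (SE) with it, with edgeR adjusted p values of 0.980 and 0.377.

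*Igha*, the gene of the mucosal antibody class, was the only heavy chain gene whose Ezh2 libraries all lay below the GFP libraries. It had 1567, 1756 and 1525 CPM across GFP replicates 1 to 3. Ezh2 replicates 1 to 3 had 1516, 1368 and 958 CPM. Every Ezh2 library lay below every GFP library, as for 19.3% of all genes tested, although GFP replicate 3 (1525 CPM) and Ezh2 replicate 1 (1516 CPM) were close. The log2FC was -0.15 ± 0.06 (SE) in the 5 libraries at an adjusted p of 0.0634 by edgeR. With all 6 libraries it was -0.30 ± 0.14 (SE) at an adjusted p of 0.246 by edgeR, so *Igha* passed the test in neither fit. The plot of *Ighm*, *Igha* and *Ighg2b* by library shows all 3 patterns.

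**Figure D2:**
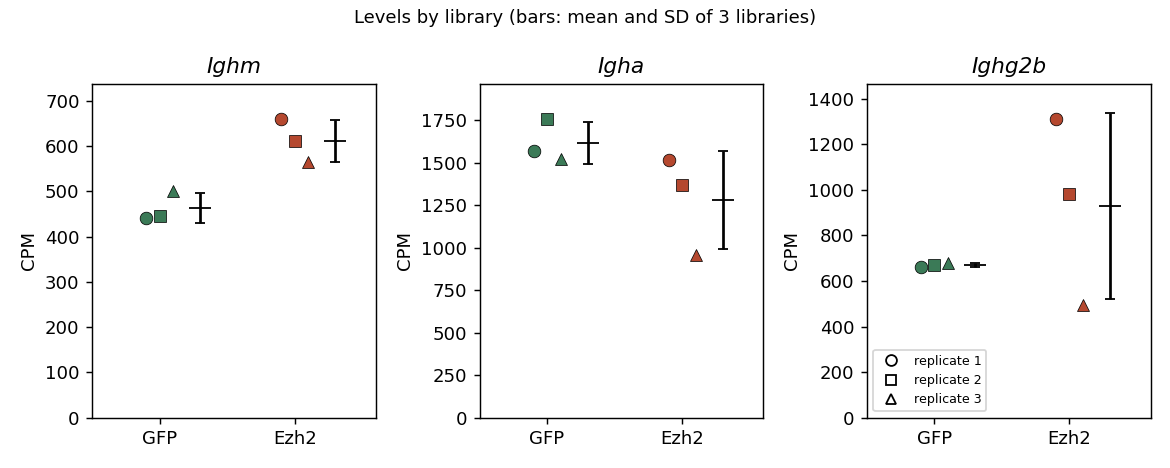
CPM of Ighm, Igha and Ighg2b in GFP (green) and Ezh2 (red) libraries, with marker shapes for replicate numbers and black bars for the mean and SD of 3 libraries per group. Ighm is higher in all 3 Ezh2 libraries (565 to 659 CPM) than in the GFP libraries (441 to 501 CPM), Igha is lower in all 3, and Ighg2b is above the GFP libraries in Ezh2 replicates 1 and 2 and below them in replicate 3.

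Light chains were examined next. *Igkc* had 1710, 1805 and 1668 CPM in the 3 GFP libraries in order, and 2072, 1986 and 1172 CPM in Ezh2 replicates 1 to 3. As with *Ighg2c*, the first pair of Ezh2 libraries lay above the GFP range and the third below it. The log2FC of *Igkc* was 0.24 ± 0.05 (SE) in the 5 libraries at an adjusted p of 0.000696 by edgeR, and 0.04 ± 0.19 (SE) in all 6 at an adjusted p of 0.905 by edgeR. With the replicate number as a block in the 5 libraries the adjusted p of *Igkc* was 0.0523. *Iglc1* had 32.5, 39.7 and 49.7 CPM in the 3 GFP libraries in order, and 55.2, 33.5 and 20.6 CPM in the Ezh2 libraries, and the groups overlapped. Its log2FC was 0.13 ± 0.33 (SE) at an adjusted p of 0.856 by edgeR. The other lambda constants *Iglc2* and *Iglc3*, which are 94.3% identical to each other in the first exon, were called in neither fit.

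*Jchain* had 486, 490 and 441 CPM across GFP replicates 1 to 3. Ezh2 replicates 1 and 2 had 479 and 449 CPM, within the GFP range, and Ezh2 replicate 3 had 269 CPM. The log2FC was -0.01 ± 0.05 (SE) in the 5 libraries at an adjusted p of 0.896 by edgeR, and -0.21 ± 0.20 (SE) in all 6 at an adjusted p of 0.538 by edgeR. The ratio of *Jchain* to *Igha* per kb was 0.329, 0.296 and 0.306 in the GFP libraries and 0.335, 0.348 and 0.298 in Ezh2 replicates 1 to 3. These ratios overlapped. The plot of fold changes sets both fits side by side for the 10 genes.

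**Figure D3:**
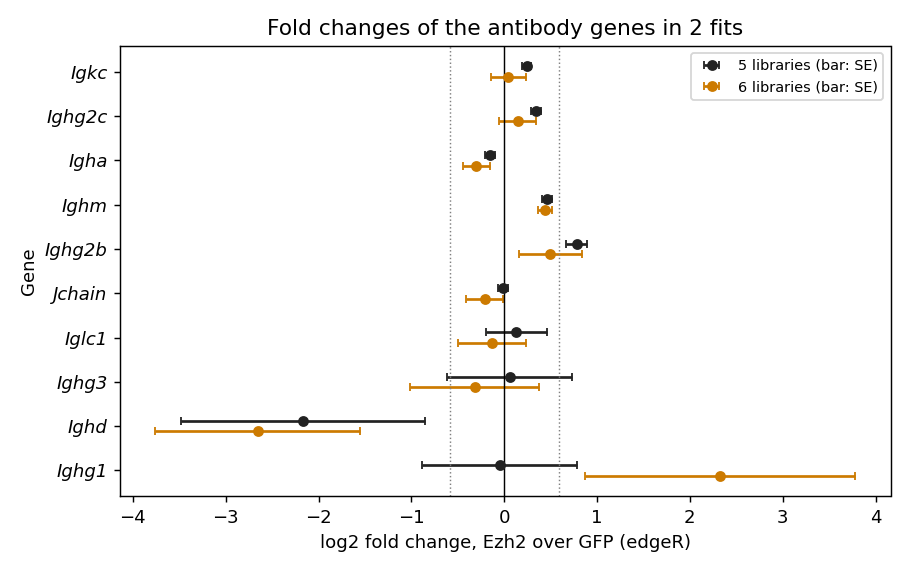
log2 fold change of Ezh2 over GFP with its SE for each gene, from edgeR on 5 libraries (black) and on all 6 (orange), with dotted lines at a fold change of 1.5 in either direction. Ighm has nearly the same value in both fits (0.47 and 0.44), Ighg2b passes the dotted line in the 5 libraries only, and Ighd, Ighg1 and Ighg3 have wide errors.

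Isotype shares per library were compared as a share of the summed 7 heavy chain constants, each per kb of exon. *Ighg2c* held about the same share throughout, 52.9%, 50.9% and 49.5% in the GFP libraries and 52.3%, 53.3% and 50.1% in Ezh2 replicates 1 to 3. Its lead over *Igha* depends on exon length, 1326 bases for *Ighg2c* and 2668 for *Igha*. On counts without length, *Igha* held more than *Ighg2c* in GFP replicate 2 (38.8% against 35.4%) and GFP replicate 3 (36.6% against 34.4%). It held less in the other libraries. *Igha* held 25.5%, 27.7% and 26.1% in the GFP libraries. Its share was 19.2%, 19.6% and 21.1% in the Ezh2 libraries, below the GFP range in all 3. The difference of means was -6.50 percentage points (two-sided exact permutation p of 0.1, the smallest that 3 against 3 libraries allow, and 0.533 adjusted over the 8 shares compared). In the 5 libraries the difference was -7.09 points, and the smallest p allowed is 0.2.

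*Ighm* held 10.2%, 9.95% and 12.2% in the GFP libraries and 11.8%, 12.3% and 17.6% in Ezh2 replicates 1 to 3. The groups overlapped by 1 pair of libraries, and the difference was 3.16 points (exact permutation p of 0.2, adjusted 0.533), or 1.31 points in the 5 libraries (exact permutation p of 0.4). Ezh2 replicate 3 had the largest *Ighm* share of the 6 libraries. *Ighg2b* held 10.7%, 10.5% and 11.6% in the GFP libraries and 16.5%, 13.98% and 10.9% in Ezh2 replicates 1 to 3. Its difference was 2.82 points (exact permutation p of 0.2, adjusted 0.533), or 4.27 points in the 5 libraries. *Ighg3* held 0.241% to 0.844%, *Ighd* 0.0043% to 0.205% and *Ighg1* 0% to 0.0877%.

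**Figure D4:**
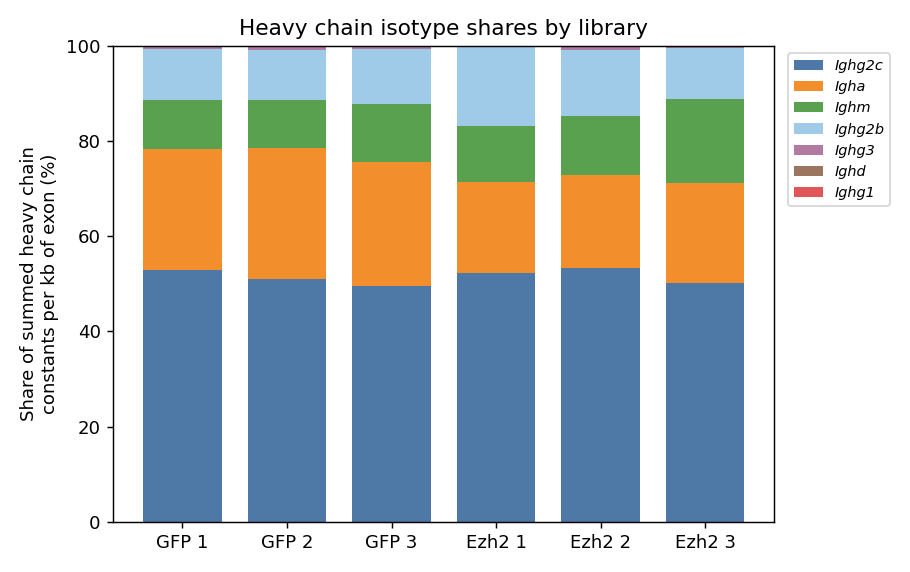
Share of each heavy chain constant gene in the sum of the 7 heavy chain constants, counts per kb of exon, in each library. Ighg2c (blue) takes 49.5% to 53.3% in every library, Igha (orange) is narrower in the 3 Ezh2 libraries than in the 3 GFP libraries, and Ighm (green) is widest in Ezh2 replicate 3.

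A ratio within a library does not depend on how many antibody transcripts the library held. Per kb, *Ighm* over *Igha* was 0.398, 0.359 and 0.465 in GFP replicates 1 to 3. It was 0.615, 0.631 and 0.834 in the Ezh2 libraries, above every GFP library. That order was fixed by the CPM above, since every Ezh2 library had more *Ighm* and less *Igha* than every GFP library. The log2 difference was 0.76 (exact permutation p of 0.1, the smallest possible, not adjusted), and 0.62 in the 5 libraries, where the smallest possible p is 0.2. The p of 0.1 is therefore no separate support. *Ighg2b* over *Ighg2c* was 0.203, 0.207 and 0.234 in the GFP libraries and 0.315, 0.262 and 0.217 in the Ezh2 libraries, and the groups overlapped through Ezh2 replicate 3. Both measures use the gene counts as deposited, and reads that fit both IgG2 genes could have gone to either.

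The switched classes, IgG and IgA together, made up 89.6%, 90.03% and 87.7% of the heavy chain constants in the GFP libraries and 88.2%, 87.6% and 82.4% in Ezh2 replicates 1 to 3. The difference was -3.06 points (exact permutation p of 0.2), or -1.22 points in the 5 libraries (exact permutation p of 0.4), and Ezh2 replicate 1 lay within the GFP range. Kappa held 96.6% to 98.1% of the 2 light chain constants *Igkc* and *Iglc1*, with a difference of 0.36 points (exact permutation p of 0.5), or 0.21 points in the 5 libraries. The summed heavy chain constants differed by 0.02 on the log2 CPM scale in all 6 libraries (exact permutation p of 1.0) and by 0.26 in the 5 (exact permutation p of 0.2, the smallest possible). Light over heavy constants per kb was 1.43, 1.47 and 1.48 in the GFP libraries and 1.35, 1.45 and 1.32 in the Ezh2 libraries.

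Ezh2 replicate 3 held less of most classes, but not of each to the same degree. Its *Ighm* CPM was 89.0% of the mean of Ezh2 replicates 1 and 2, while *Igha* was 66.4% and *Jchain*, *Ighg2c* and *Igkc* were 57.8% to 58.1%. *Ighg2b* was 43.2%, *Iglc1* 46.5% and *Ighg3* 29.5% of that mean.

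Plasma cell genes served as a check of the cells behind these transcripts. *Jchain* had 9694 to 15723 counts per library, but it is itself among the antibody genes followed here and is no separate check. *Sdc1*, which encodes the plasma cell surface marker CD138, had 259 to 350 counts. *Mzb1*, a chaperone of antibody assembly, had only 52 to 80 counts. *Tnfrsf17*, the receptor BCMA of long-lived plasma cells, had 21, 11 and 8 counts in the GFP libraries and 3, 6 and 3 in Ezh2 replicates 1 to 3. Every Ezh2 library thus lay below every GFP library, an order found for 19.3% of all genes tested with 6 libraries. Per kb, *Igkc* exceeded *Mzb1* by 1302 to 2509 times. The B cell gene *Cd79a*, a signalling subunit of the B cell receptor, had 161 to 223 counts. Genes of both stages were therefore detected, though *Tnfrsf17* was close to the limit of 3 counts in Ezh2 replicates 1 and 3.

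Of 18 plasma cell genes tested in the 5 libraries, 2 were called higher and 0 lower, beside 2.52% of all genes called higher. At an unadjusted edgeR p under 0.05, 11 were higher and 1 was lower, beside 15.5% and 13.8% of all genes tested, and DESeq2 and limma-voom also called 0 lower. The 1 lower was *Tnfrsf17*, with a log2FC of -1.65 ± 0.80 (SE) at an adjusted p of 0.166 by edgeR. DESeq2 gave *Tnfrsf17* no adjusted p, and with all 6 libraries it did not pass the filter on low counts. The median log2FC was 0.24, and 0.26 in all 6 libraries. *Cd38*, an ectoenzyme found on plasma cells and on other leukocytes, averaged 16.6 ± 1.35 CPM (SD, n = 3) in the GFP group and 46.7 ± 7.82 CPM (SD, n = 2) in Ezh2 replicates 1 and 2, and rose with a log2FC of 1.504 ± 0.10 (SE) at an adjusted p of 5.87e-11 by edgeR. *Slamf7*, a surface receptor of plasma cells, NK cells and macrophages, rose by 0.63 ± 0.08 (SE) at an adjusted p of 5.1e-07 by edgeR. Both were also called with all 6 libraries. *Slamf7* fell under the fold threshold without Ezh2 replicate 2, at a log2FC of 0.57. The abundant genes of this list *Xbp1* (124 to 151 CPM), *Txndc5* (99.2 to 110 CPM) and *Tent5c* were not called. *Tent5c* had 85.2, 90.8 and 86.6 CPM in the GFP libraries and 118, 119 and 115 CPM in Ezh2 replicates 1 to 3. Its Ezh2 libraries all lay above the GFP libraries, as for 14.9% of all genes tested. *Irf4*, a transcription factor of plasma cells and activated T cells, had 52.4 to 70.8 CPM in 5 libraries and 419 CPM in Ezh2 replicate 3.

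Among 20 B cell genes, 2 were called higher and 0 lower in the 5 libraries, beside 2.52% and 1.28% of all genes tested. At an unadjusted edgeR p under 0.05, 7 were higher and 0 lower, where 15.5% of all genes tested were higher and 13.8% lower. *Cd22*, an inhibitory receptor of B cells that microglia also express, rose by 1.00 ± 0.10 (SE) on the log2 scale at an adjusted p of 1.29e-08 by edgeR. *Vpreb3* rose by 1.06 ± 0.37 (SE) at an adjusted p of 0.0418 by edgeR at levels of 0.683 to 2.17 CPM. Only *Cd22* was called in all 6 libraries. *Vpreb3* lost its call when GFP replicate 2 or 3 or Ezh2 replicate 1 or 2 was left out of the 5 libraries, with edgeR adjusted p values from 0.0610 to 0.322. The list median was 0.27, or 0.18 in all 6 libraries. The most abundant genes, *Cd72* (33.9 to 60.2 CPM) and *Cd37* (23.9 to 53.5 CPM), were not called, and *Spib* had 7.31 to 11.2 CPM.

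Genes of class switching and germinal centres were tested for 9 of 10 listed. In the 5 libraries 3 genes were called higher and 0 lower, beside 2.52% and 1.28% of all genes tested. At an unadjusted edgeR p under 0.05 the counts were 6 and 0, beside 15.5% and 13.8% of all genes tested. *Apobec1*, an RNA-editing deaminase that macrophages also express, rose by 0.92 ± 0.08 (SE) at an adjusted p of 2.84e-09 by edgeR. *Exo1*, an exonuclease of mismatch repair, rose by 0.93 ± 0.23 (SE) at an adjusted p of 0.00473 by edgeR, and lost its call without Ezh2 replicate 1 (0.0933). *Ung*, a uracil glycosylase, rose by 0.74 ± 0.23 (SE) at an adjusted p of 0.0206 by edgeR. Its call was lost without GFP replicate 3, Ezh2 replicate 1 or Ezh2 replicate 2 (edgeR adjusted p of 0.0744 to 0.150) and with all 6 libraries (0.104). *Bcl6* (59.4 to 80.9 CPM) and *S1pr2* (33.4 to 45.1 CPM) were not called. Of the early B cell genes, *Igll1*, a surrogate light chain gene, had 0 counts in every library. *Il7r*, which T cells also express, had 27.6 to 39.9 CPM, *Rag1* 1.46 to 3.09 CPM and *Dntt* 0.945 to 1.93 CPM. Of these early genes 3 of 7 were tested and 0 were called by edgeR, DESeq2 or limma-voom, with 1 higher and 0 lower at an unadjusted edgeR p under 0.05.

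Receptors that bind the antibody constant part were followed as well. *Fcgr3* (69.3 to 113 CPM), *Fcgr2b* (46.0 to 73.6 CPM) and *Fcgr1* (47.2 to 77.1 CPM) encode IgG receptors of myeloid cells, and *Trim21* (52.5 to 76.8 CPM) encodes a cytosolic antibody receptor. Of 7 genes tested in this list, 1 was called higher and 0 lower in the 5 libraries, beside 2.52% and 1.28% of all genes tested. At an unadjusted edgeR p under 0.05, 5 were higher and 1 was lower, beside 15.5% and 13.8% of all genes tested. *Fcer1g*, the signalling chain shared by several of these receptors, rose by 0.63 ± 0.07 (SE) at an adjusted p of 3.08e-07 by edgeR. In all 6 libraries its log2FC was 0.52, under the fold threshold, and edgeR and DESeq2 called 0 of the 7. Among all genes tested there, edgeR called 1.62% higher and 0.902% lower. At an unadjusted edgeR p under 0.05, 3 of the 7 were higher and 1 was lower, beside 13.0% and 11.5% of all genes tested. *Fcer1g* also fell under the threshold without GFP replicate 3 (0.58) or Ezh2 replicate 2 (0.50). *Pigr*, which carries IgA and IgM across epithelia, had at most 0.217 CPM. The plot of list genes sets these lists beside the antibody genes.

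**Figure D5:**
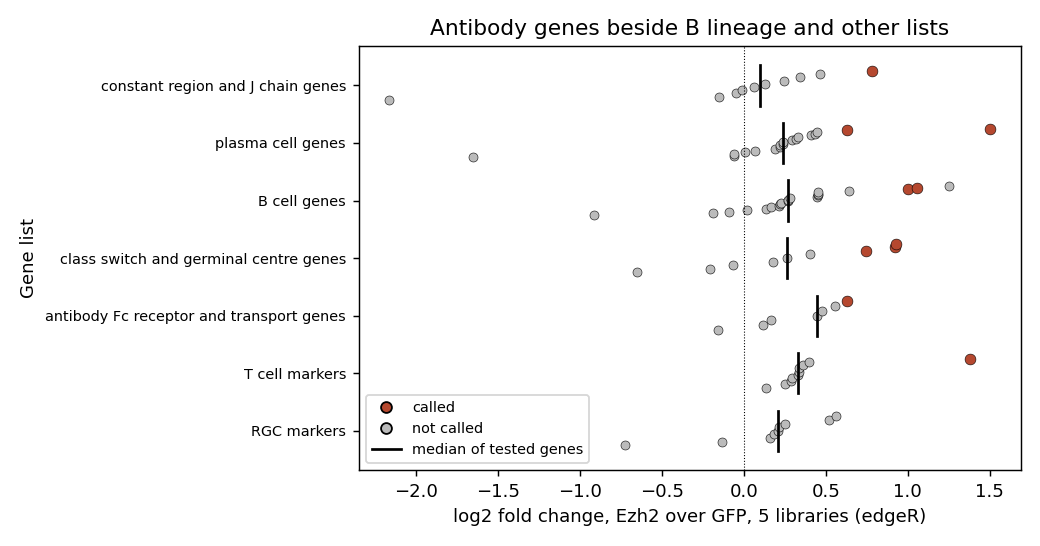
log2 fold change of Ezh2 over GFP in the 5 libraries for each tested gene of 7 lists, with red points for called genes, grey points for genes not called and a black line at each list's median. The antibody genes have a median of 0.095 with 1 called gene, and the plasma cell, B cell and T cell lists have medians of 0.24, 0.27 and 0.33.

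Markers of other cells were measured beside the antibody genes. Summed T cell markers were 471 to 504 CPM in the GFP libraries, 601 and 627 CPM in the first pair of Ezh2 libraries and 1032 CPM in Ezh2 replicate 3. In the 5 libraries 1 of 10 tested (*Cd8a*, log2FC 1.38) was called higher, beside 2.52% of all genes tested. At an unadjusted edgeR p under 0.05, 10 were higher and 0 lower, beside 15.5% and 13.8% of all genes tested. *Cd4* (93.6 to 153 CPM) and *Lck* (78.3 to 134 CPM) led that list. Summed macrophage and microglia markers were 967 to 1086 CPM in the GFP libraries and 902 to 1308 CPM in the Ezh2 libraries, led by *Csf1r* (447 to 615 CPM) and *Cx3cr1* (148 to 225 CPM). Of 9 tested, 2 (*Cd68*, 1.35, and *Mrc1*, 0.66) were called higher in both fits, beside 2.52% and 1.62% of all genes tested. In the 5 libraries 6 of the 9 were higher and 0 lower at an unadjusted edgeR p under 0.05, beside 15.5% and 13.8% of all genes tested. With all 6 libraries 3 of the 9 were higher and 0 lower, beside 13.0% and 11.5% of all genes tested. *Tmem119* (59.8 to 95.2 CPM) and *P2ry12* (16.0 to 30.7 CPM) overlapped between the groups. Of the neutrophil genes, *Mmp8* had 0, 0 and 3 counts in the GFP libraries and 52, 69 and 38 in Ezh2 replicates 1 to 3. It was called higher at an adjusted p of 4.45e-07 by edgeR and also by limma-voom, while DESeq2 gave it no adjusted p and so no call. *Csf3r* had 52.7 to 79.7 CPM, *Ly6g* at most 1 count and *Retnlg* none. *Pf4*, listed with the platelet markers, had 0.131 to 0.474 CPM in the GFP and 1.68 to 2.28 CPM in the Ezh2 libraries. The other 7 red blood cell and platelet markers had at most 11 counts in a library, and the platelet gene *Ppbp* among them had 0 in every library. RGC markers summed to 138 to 142 CPM in the GFP and 154 to 168 CPM in the Ezh2 libraries. *Thy1*, the gene of the sort gate, gave 87.2 to 114 CPM of that. Of 9 tested in the 5 libraries 0 were called. At an unadjusted edgeR p under 0.05, 3 were higher and 1 was lower, beside 15.5% and 13.8% of all genes tested. *Elavl4* had 1.40 to 2.36 CPM in the GFP and 0.584 to 1.15 CPM in the Ezh2 libraries, an order found for 19.3% of all genes tested. *Isl1* averaged 10.6 CPM in the GFP and 8.40 CPM in the 3 Ezh2 libraries. The defining RGC factor *Pou4f2* had at most 3 counts in a library. *Nefl*, a neurofilament gene, was called with all 6 libraries (log2FC 0.59) and not with the 5 (0.56, a fold below the threshold). The part of these cells in the antibody results was not tested.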

How the data were processed

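Raw read counts per Ensembl gene, deposited by the authors for 6 libraries, were used as they stand. The submitters' processing notes name STAR 2.7.0d and GRCm38, and the counting program, annotation release and strand setting are not given in the sources used here. Per the labels, the libraries were stranded and made from total RNA. Gene counts do not separate secreted from membrane exons. Symbols and exon lengths came from GENCODE M21 (55480 of 55573 identifiers matched), and 0 columns of sample values lacked a sample.

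CPM used library totals, and RPKM and shares used the union of a gene's exons. After filterByExpr and TMM scaling, counts were tested with the robust quasi-likelihood F test of edgeR 4.0.16 (R 4.3.3), with Benjamini-Hochberg adjustment over all genes. SE came from the F statistic. Shares were compared with two-sided exact permutation tests (scipy 1.17.1). As alternatives, all 6 libraries were fitted, and each library was left out, beside the replicate block, DESeq2 1.42.0, limma-voom (limma 3.58.1), other scalings, no filter and no fold threshold.

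Genes and lists were chosen with earlier results of these data known. Named genes are the 10 genes, list genes called in either fit, up to 4 of the most abundant genes per list, and the genes whose levels most resemble the summed heavy chain constants. Marker genes named for a check of cell identity or for values at the detection limit were added after their values were seen. Some list genes are counted but not reported here by name.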

Additional observations from a re-analysis of the deposited data

Results flagged for a closer look

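Ezh2 replicate 3 had 3.86 CPM of *Ighg1*, while the other 5 libraries had 0 to 0.521 CPM. It also had 419.4 CPM of *Irf4* against 52.4 to 70.8 CPM elsewhere, and 11.2 CPM of *Ung* against 2.28 to 4.34 CPM. These values drew attention because the library lies outside the 5-library comparison and exceeds the GFP libraries in each. Single libraries were not tested as outliers, since that needs groups of at least 4. The part of the T cell markers, whose sum was 1032 CPM in this library, was not tested.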

How the results depend on the processing

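With all 6 libraries edgeR called 0 of the 10 antibody genes higher, and so did DESeq2 on the 6 libraries (chosen after seeing the data), the replicate block with 6 libraries, and the 5 libraries without GFP replicate 3 or Ezh2 replicate 1. Adjusted p alone called 4 in the 5 libraries, beside 10.1% of all genes tested higher. Each library left out in turn gave 0 to 1 antibody genes higher and 0 to 1 lower, the last being *Ighd*, which the fit without robust estimation (chosen after seeing the data) also called lower, 1 gene. Plasma cell genes called higher numbered 9 by adjusted p alone, beside 10.1% of all genes tested, and 1 to 2 with a library left out. B cell genes called higher numbered 1 with all 6 libraries, the replicate block on 5 or 6 libraries, DESeq2, limma-voom and the fit without robust estimation. They numbered 4 by adjusted p alone, beside the same 10.1%, and 0 to 3 with a library left out. With all 6 libraries, adjusted p alone gave 3 plasma cell and 1 B cell genes higher.

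Directions turned for genes with small or uncertain changes, and the cause was not tested. *Ighg1* had log2 fold changes of 2.33 with all 6 libraries, 0.87 and 1.89 with the replicate block on 5 and 6 libraries, 0.99 with limma-voom and 2.36 with DESeq2 on 6. *Ighg3* had -0.32, -0.22, -0.54, -0.049 and -0.32 in the same order. *Iglc1* had -0.13 with all 6 libraries, -0.21 with the replicate block on them and -0.13 with DESeq2 on 6. With a library left out the log2 fold change ran from -0.63 to 2.90 for *Ighg1*, 0.19 to 0.96 for *Ighg2b*, -0.42 to -0.091 for *Igha*, -0.0077 to 0.40 for *Ighg2c*, -1.22 to 0.63 for *Ighg3*, -0.080 to 0.27 for *Igkc*, -0.54 to 0.44 for *Iglc1* and -0.34 to 0.020 for *Jchain*. *Ighm* stayed between 0.40 and 0.53 in all 23 fits.

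The *Igha* share difference was -8.63 points on counts without length and -7.09 to -5.87 points with a library left out. With a library left out, Ezh2 replicate 3 included among those left out, the *Ighg1* share ran from -0.0012 (without that library) to 0.041 points, the *Ighg2c* share from -0.043 to 1.67 points, the *Ighm* share from 1.31 to 4.22 points, the *Ighg2b* share from 1.46 to 4.27 points and the switched share from -4.12 to -1.22 points. The summed heavy chain constants ran from -0.15 to 0.26 and the light chain constants from -0.19 to 0.23 on the log2 scale, both highest without Ezh2 replicate 3. Summed V genes in place of constants (chosen after seeing the data) gave -0.0086 for heavy chains.

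Of the list genes called with all 6 libraries, *Slamf7*, *Cd22*, *Apobec1*, *Exo1*, *Mrc1*, *Mmp8* and *Pf4* lost the call without GFP replicate 1 (edgeR adjusted p of 0.0532 to 0.174) and some without other libraries too, as did *Ezh2* without each GFP library (0.0616 to 0.0877). *Nefl* was also called in the 5 libraries without GFP replicate 3 or Ezh2 replicate 1 and with the replicate block.

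Same-numbered libraries of the groups did not deviate together (correlations of -0.0055, -0.020 and -0.011), so the numbers were not taken as pairs. With the block, 722 genes were called in the 5 libraries, against 770. Exact tests of shares could not go below 0.1, and *Ighd* and *Ighg1* were limited by low counts.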

Other observations

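Antibody V genes, which encode the part that binds antigen, were summed for each library. Summed heavy chain V genes had 1131 to 1284 CPM in the GFP libraries and 1555, 1367 and 812 CPM in Ezh2 replicates 1 to 3, and summed kappa V genes had 1236 to 1365 CPM and 1529, 1437 and 869 CPM. Summed lambda V genes had 45.1, 51.1 and 54.4 CPM in the GFP libraries and 67.4, 43.1 and 34.6 CPM in Ezh2 replicates 1 to 3, so that here Ezh2 replicate 2 also lay below the GFP libraries. The most abundant heavy chain V gene of a library held 14.9% to 19.3% of its heavy V counts in the GFP libraries and 9.98% to 11.8% in the Ezh2 libraries. For kappa V genes the top gene held 18.9% to 27.0% in the GFP libraries and 30.1% to 39.5% in the Ezh2 libraries. Reads of near-identical V genes are not told apart with certainty.

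The 5 genes outside the antibody loci whose log2 CPM followed the summed heavy chain constants most closely over the 6 libraries were *Rap1gap2* (Pearson r of 0.996), *Kctd12* (0.995), *Lrrtm4* (0.990), *Dnajc5* (0.989) and *Pitpnm3* (0.988). They were picked as the highest of 13679 genes compared, the 6 libraries include Ezh2 replicate 3, which is lowest in all of them, and the values are a description.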
